A study of Mus musculus with 26 samples.

Results

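Keratin genes were followed through mammary tumors and tumor organoids of mice whose cells had been treated with oligonucleotides against Malat1. Members were all genes with a symbol of the form Krt plus a number that held at least 10 counts in at least 1 library. The rule was met by 49 of the 54 keratin symbols matched, among 37310 genes in the tables. They comprised 6 keratins of simple epithelia, 4 of basal epithelia, 13 of squamous epithelia, 24 of hair, and 2 others (Krt90 and Krt222). Members just inside the rule were Krt88, Krt20 and Krt222, with highest counts of 13, 14 and 19. Just outside it, Krt13, Krt12, Krt74, Krt40 and Krt24 reached 8, 7, 7, 6 and 2 counts. All members lay in the 2 keratin clusters on GRCm38: 23 on chromosome 11 between 99232761 and 100269871, and 26 on chromosome 15 between 101347444 and 102032027.

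Keratins are the intermediate filament proteins of epithelial cells. A filament is built from pairs of an acidic type I and a basic type II keratin, and which pair a cell makes marks its lineage and state. In the mammary gland, luminal cells make Krt8 with Krt18 and Krt19, and basal cells make Krt5 with Krt14. In skin, Krt1 and Krt10 mark differentiating epidermis, Krt6 genes with Krt16 and Krt17 mark wounded or appendage epithelium, and hair keratins build the follicle's inner root sheath and the shaft.

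All mice were MMTV-PyMT on C57BL/6, a model in which a viral promoter active in mammary epithelium drives an oncogene. Tumors came from mice given Malat1 ASO1 (n = 3), Malat1 ASO2 (n = 4) or scASO (n = 3), an oligonucleotide not directed at Malat1, at 125 mg/kg per week under the skin. Organoids, pieces of such tumors grown in Matrigel with FGF2, received Malat1 ASO1, Malat1 ASO2 or scASO at 500 nM for 6 days with renewal after 3 days, or no named oligonucleotide (Mock), with 4 libraries each. RNA with poly(A) tails was sequenced, and each file held counts per gene. Nothing in the labels ties a library to its own mouse or culture, so a p-value here covers only library-to-library spread and that spread may be technical. Neither the ages, the weeks of treatment, any pooling of animals nor what the organoid numbers share is stated in the labels.

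Depth, as reads in genes, was 9939520 to 51363552 per tumor library and 23973533 to 65146030 per organoid library. Malat1, the targeted gene, stood in tumors at 45.2% of the scASO level over both ASOs (two-sided exact permutation test, p = 0.0333, 7 against 3 libraries). In organoids it stood at 35.5% of scASO (exact permutation p = 0.125, 8 against 4) and at 18.9% of Mock (exact permutation p = 0.0162). Malat1 went against the label in 2 organoid libraries: the library labelled ASO2 replicate 1 held 1485 CPM (counts scaled to library size) against 95.6 to 307 in the other ASO2 libraries, and the library labelled scASO replicate 2 held 119 against 781 to 1191. Without these, Malat1 stood at 15.9% of scASO (7 against 3 libraries). No p-value is given for this, as the 2 libraries were set aside by their Malat1 values. The 4 organoid libraries numbered 4 stood apart from numbers 1 to 3 in keratins, as described below, and results are given with and without them. Same-numbered organoid libraries deviated together, so organoid comparisons are given with the number as a block as well. The reads of near-identical keratins may have been split or lost: 50.1% of 50-base windows of Krt6b, 49.5% of Krt6a, 43.5% of Krt81, 43.3% of Krt86 and 37.6% of Krt16 also occur in another gene's exons. Values of the 16 members with over 5% of such windows are uncertain, and 20 members had none. The 16 include Krt8 (26.9%), Krt14 (14.4%) and Krt5 (8.52%), so their levels and ratios below carry this limit too.

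Tumors expressed mainly the keratins of luminal cells, whereas organoids added the basal pair at a level near that of the luminal one. Levels are compared between genes as CPM per kilobase of exon. In the 10 tumors, mean levels per kilobase were 573 for Krt18, 411 for its partner Krt8 and 264 for Krt19, a keratin of luminal and ductal cells. They were followed by Krt14 at 54.1, Krt5 at 46.8, Krt23 at 34.3, Krt7 at 25.4 and Krt17 at 23.6. The place of Krt7 rests on an annotated exon length of 7049 bases, against 1758 for Krt14. Before division by length, Krt7 held 79.0 to 358 CPM in tumors and Krt14 49.1 to 156. Shares per kilobase depend on these lengths as well. In the 12 organoids numbered 1 to 3 the order was Krt18 at 987, Krt14 at 721, Krt8 at 697, Krt5 at 556, Krt19 at 444 and Krt17 at 227. Krt14 and Krt5 thus ranked above Krt19 in these organoids and below it in tumors. In the organoids numbered 4, the order per kilobase began with Krt14 at 1808, Krt16 at 1656, Krt5 at 1206, Krt18 at 758 and Krt17 at 735, so that Krt18 and Krt17 lay close to each other. These were followed by Krt6b at 695, Krt90 at 534, Krt6a at 512, Krt8 at 499 and Krt73 at 454.

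**Figure D1:**
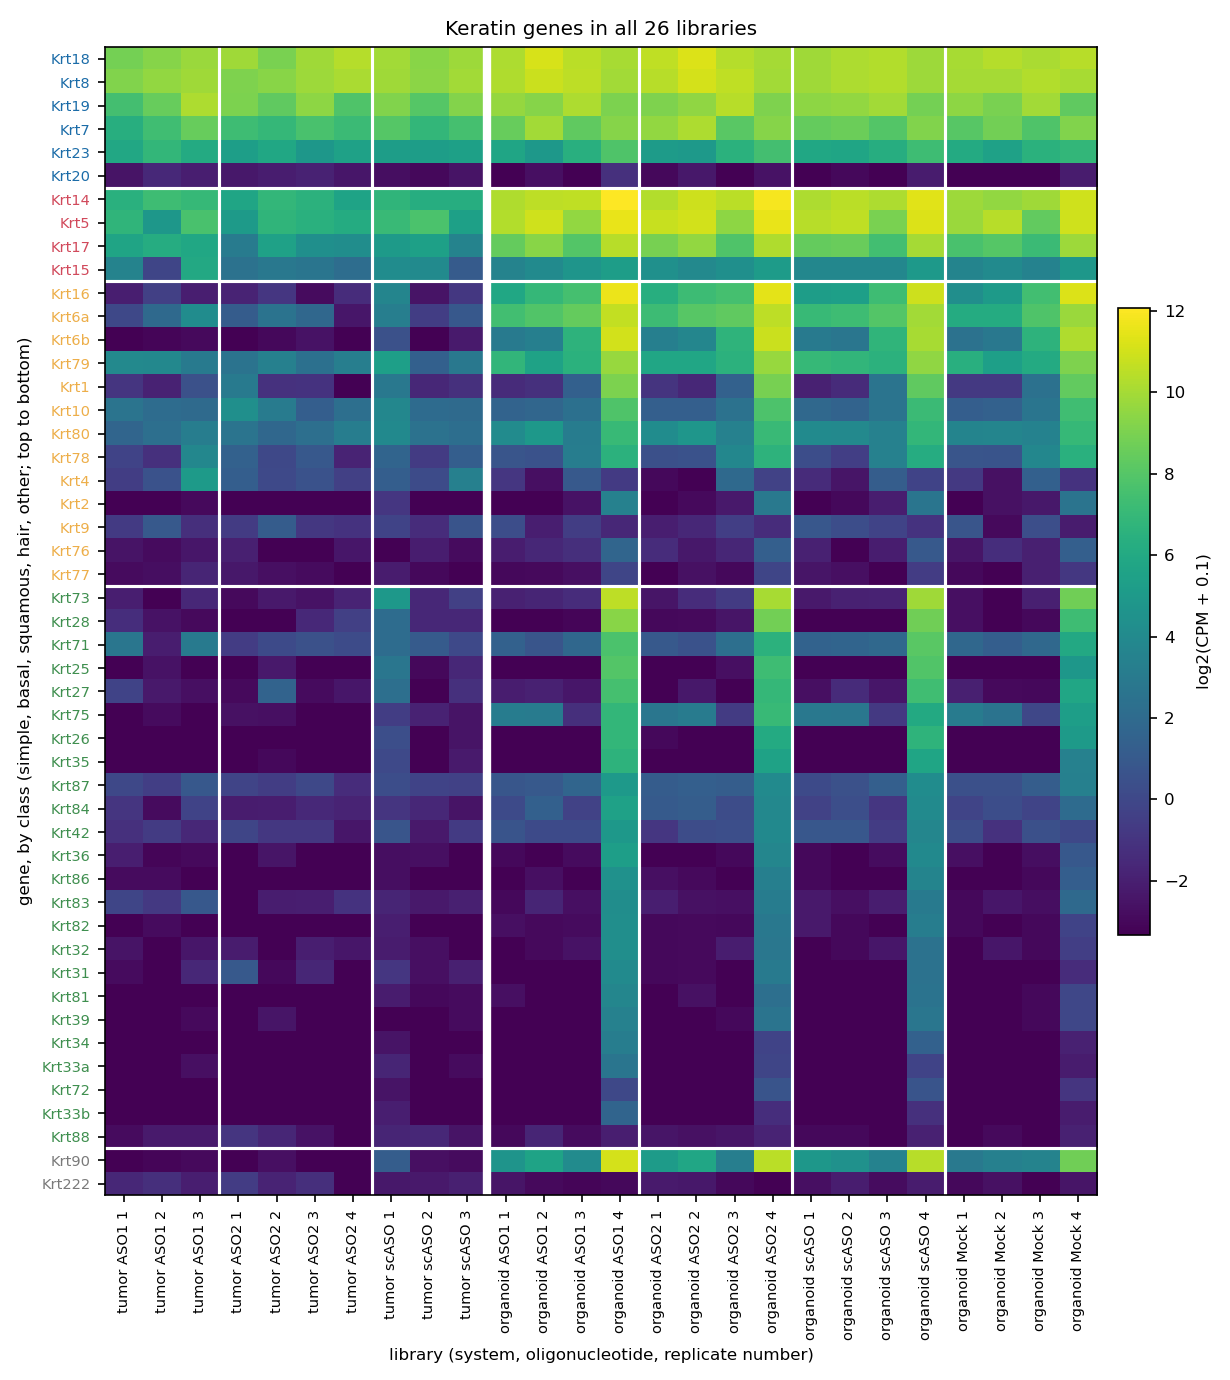
Level of each of the 49 keratins (rows, by class) in each of the 26 libraries (columns, by group) as log2 of CPM plus 0.1, on a colour scale. The 4 organoid columns numbered 4 stand out in the squamous and hair rows, and the tumor columns are bright mainly in the simple rows.

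Of the summed keratin level per kilobase, simple keratins made 83.3 to 95.2% in tumors, 49.4 to 65.7% in organoids 1 to 3 and 13.4 to 23.2% in organoids 4. The 3 ranges did not overlap. Basal keratins made 4.01 to 15.3% in tumors and 25.2 to 46.6% in organoids 1 to 3. Hair keratins made 0.0874 to 1.62% in tumors, 0.0978 to 0.208% in organoids 1 to 3 and 5.19 to 13.2% in organoids 4. Within the simple pair, the level of Krt18 per kilobase was 1.09 to 2.28 times that of Krt8 in tumors and 1.17 to 1.79 times in organoids. The ratio of Krt14 to Krt5 spread from 0.464 to 6.76 in tumors, a wider range than that of the luminal pair. Type I keratins together exceeded type II keratins in every library, by 1.5 to 3.08 times in tumors and 1.27 to 2.13 times in organoids.

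**Figure D2:**
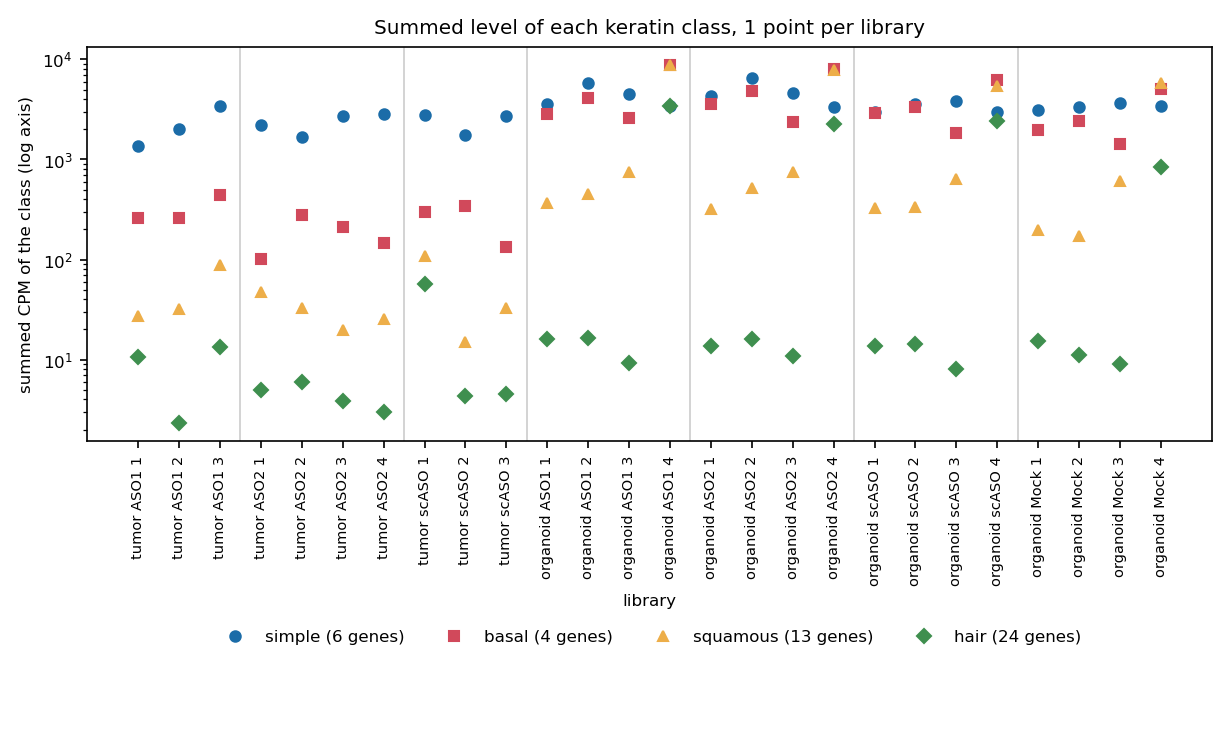
Summed CPM of the simple, basal, squamous and hair keratins (symbols and colours, on a shared log axis) in each library (points) of the 7 groups. Hair sums of organoids numbered 4 lie between 839.2 and 3391 CPM, against 7.961 to 16.27 in the other organoids.

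Tumor libraries differed in keratins mainly by single libraries, and no keratin passed the test between treatments. The tests addressed whether lowering Malat1 changed keratin expression in tumors. Of the 49 members, 26 passed the filter on low counts, and 0 of 26 were called for ASO1 against scASO (0.00576% of 17354 genes were called), ASO2 against scASO (0%) or both ASOs against scASO (0%) with edgeR. At an unadjusted p under 0.05 the counts were 4, 1 and 3 of 26, beside 8.45%, 5.14% and 5.86% of all genes. DESeq2 gave an adjusted p to 22, 24 and 22 of the 26 and called 0 of them (0.663%, 0.261% and 0.121% of all genes), with 3, 1 and 2 at an unadjusted p under 0.05. The median log2 fold changes of those 26 were 0.24, -0.41 and -0.09, against 0.055, 0.043 and 0.049 over all genes. In bulk tissue, fewer cells of a type and less RNA per cell cannot be told apart.

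Among luminal keratins of tumors, Krt18 held 469, 621 and 879 CPM with ASO1, 939, 515, 934 and 1339 with ASO2, and 969, 641 and 922 with scASO. Krt8 held 577, 761 and 936, then 560, 643, 890 and 1100, and 930, 680 and 971. For both genes the 3 groups overlapped, and the log2 fold changes of ASO1 against scASO were -0.34 ± 0.35 (SE) and -0.16 ± 0.29. Krt23, a type I keratin of simple epithelia, held 60.1, 118 and 68.5 CPM with ASO1 against 37.8, 37.6 and 43.8 with scASO. All ASO1 libraries lay above all scASO libraries, while the ASO2 values of 39.1, 56.8, 28.7 and 45.4 overlapped both. Its log2 fold change with ASO1 was 1.07 ± 0.28, with an edgeR adjusted p of 0.535.

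Basal keratins of tumors varied within each group. Krt14 held 89.1, 156 and 126 CPM with ASO1, 53.8, 116, 96.6 and 49.1 with ASO2, and 110, 76.9 and 77.6 with scASO. Krt5 held 109, 28.9 and 198, then 33.2, 109, 89.2 and 72.4, and 139, 207 and 42.6. Groups overlapped for both genes. Krt14 and Krt5 were highest in different libraries with ASO1 and scASO, and in the same one, replicate 2, with ASO2. Krt17, a keratin of myoepithelial cells and of stressed epithelium, held 51.6, 74.7 and 57.5 CPM with ASO1 against 33.9, 43.6 and 11.5 with scASO, without overlap. ASO2 tumors held 8.28, 45.2, 20.4 and 18.8 CPM of Krt17 and overlapped scASO, and the edgeR adjusted p for ASO1 was 0.626. Markers of basal and myoepithelial cells other than keratins (7 of 7 genes matched) summed to 266 to 4050 CPM in ASO1, 442 to 1075 in ASO2 and 256 to 1228 in scASO. Their part in these values was not tested.

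Squamous keratins of tumors summed highest in 2 libraries, scASO replicate 1 at 108.6 CPM and ASO1 replicate 3 at 87.9, against 15.1 to 47.8 in the other 8. Hair keratins summed to 57.1 CPM in scASO replicate 1 and to 2.31 to 13.4 in the other 9. The 2 libraries differed in their squamous members. ASO1 replicate 3 held Krt4 at 33.6, Krt6a at 17.7 and Krt78 at 13.7 CPM, against 2.31, 9.38 and 3.03 in scASO replicate 1. Krt16, a keratin induced in wounded epidermis, held 12.6 CPM in scASO replicate 1, against 0.0783 and 0.464 in the other scASO tumors and at most 0.654 in the 7 ASO tumors. Its log2 fold change for both ASOs was -3.96 ± 1.12 (edgeR adjusted p = 0.827), and 0.11 without that library. Krt73, an inner root sheath keratin, held 29.6 CPM in that library and at most 0.657 in the other 9 tumors. Krt79, a keratin of the follicle's upper duct, held 41.6 CPM there and 2.53 to 15 elsewhere. Hair follicle markers other than keratins (9 of 9 matched) summed to 97.6 CPM in that library, with Tchh at 91.1, and to 2.11 to 10.2 in the other tumors. Adipocyte markers (6 of 6 matched) summed to 5.48 to 14.0 CPM in ASO1, 8.03 to 531 in ASO2 and 3.98 to 5.32 in scASO, and the ASO ranges lay above scASO. The 531 was in ASO2 replicate 1. Skeletal muscle markers (6 of 6 matched) summed to 1968 CPM in that library and to at most 65.7 in the other tumors. Fibroblast markers (6 of 6 matched) summed to 2335 CPM there and to at most 1160 in the other tumors. The part of these other cell types in the keratin values was not tested.

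**Figure D3:**
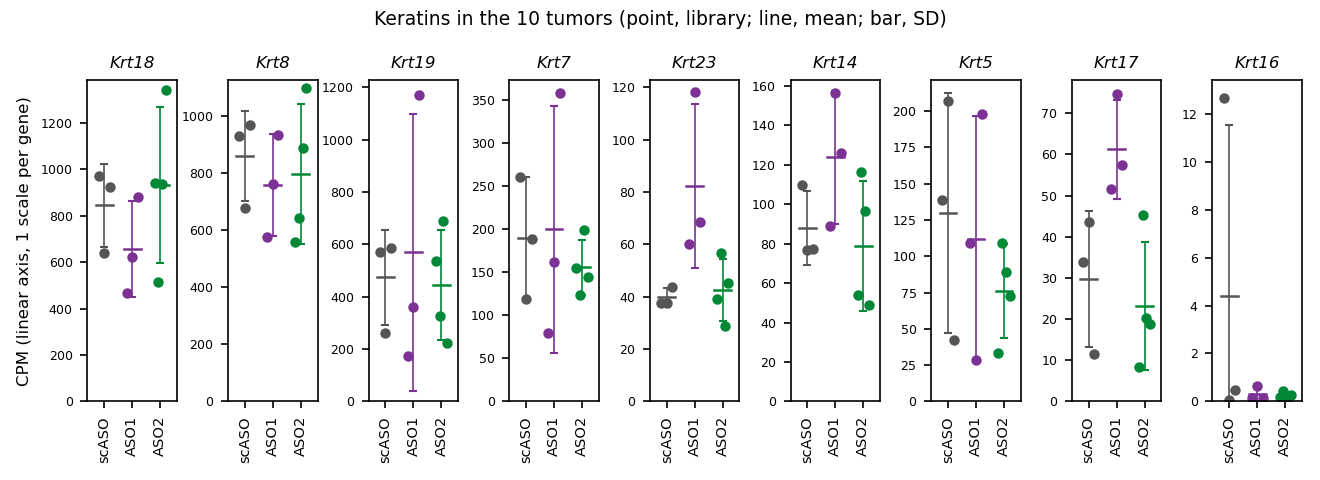
CPM of selected keratins in the 10 tumors (points) by treatment, with mean and SD (bars; axes start at 0). Krt23 and Krt17 with ASO1 lie above scASO without overlap, and Krt16 rests on the scASO library at 12.6 CPM.

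Organoids held more RNA of Krt14, Krt5, Krt17, Krt6a, Krt6b and Krt16 than tumors. Of 47 members that passed the filter in the joint fit, edgeR called 37 higher (28.9% of 18695 genes were called higher) and 2 lower (30.8% lower). The comparison sets cultured pieces against whole tumors and holds no matched mice in the labels, so culture, cell make-up and batch cannot be told apart. Members that passed the filter only with organoids numbered 4, where they were high, had to differ, so that neither count nor a median over the 47 supports a shift of the family. Without number 4, 30 members passed the filter and edgeR called 17 higher (28.4% of all genes) and 6 lower (31.7%), with a median log2 difference of 0.90 over the 30. DESeq2 gave an adjusted p to 19 of the 47 and called 13 higher and 2 lower (29.2% and 32.4% of all genes).

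Among luminal keratins the differences were smaller than those of the basal keratins Krt14, Krt5 and Krt17. Without number 4, 4 of 5 tested simple keratins were called higher and 0 lower, beside 28.4% and 31.7% of all genes. Over all organoids the log2 differences were 0.64 ± 0.15 (SE) for Krt8, 0.72 ± 0.17 for Krt18 and 1.46 ± 0.27 for Krt7, a keratin of ductal epithelium, with edgeR adjusted p of 0.000764, 0.00123 and 0.000108. Krt19 differed by 0.57 ± 0.28 (edgeR adjusted p = 0.0868), and by 0.74 ± 0.29 without number 4 (edgeR adjusted p = 0.0354). Among basal keratins, Krt14 was higher by 4.15 ± 0.30 (edgeR adjusted p = 5.04e-10). Krt14 spanned 49.1 to 156 CPM in tumors (median 92.8) and 766 to 1880 in organoids 1 to 3 (median 1262), with no overlap. Krt5 was higher by 3.91 ± 0.44 and Krt17 by 3.94 ± 0.47. Without number 4 these 3 differences were 3.70, 3.53 and 3.26, and all 3 stayed called. Krt15, a basal keratin also known from the hair follicle bulge, differed by 0.74 ± 0.43 (edgeR adjusted p = 0.138).

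Without number 4, 5 of 10 tested squamous members were called higher and 2 lower (Krt10 and Krt4), beside 28.4% and 31.7% of all genes. With number 4 the counts were 10 and 1 of 13. Krt6a, a wound-inducible type II keratin, was higher by 6.65 ± 0.86, and its partner Krt16 by 9.95 ± 1.52. Krt16 spanned 0.035 to 12.6 CPM in tumors (median 0.237) and 19.1 to 189 in organoids 1 to 3 (median 100.6), again with no overlap. Without number 4, Krt6a, Krt16 and Krt6b were higher by 5.44, 7.10 and 9.18, all called. Krt4, a keratin of internal stratified epithelia, was lower, at -2.25 ± 0.76 (edgeR adjusted p = 0.0146). Krt10 changed its direction with the libraries: it was higher by 2.86 ± 1.07 over all organoids, and fell by 0.85 (SE 0.34) without number 4.

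Without number 4, 4 of 9 tested hair members were called higher and 3 lower, beside 28.4% and 31.7% of all genes. With number 4, 20 of 23 were called higher, most of them keratins that passed the filter through those libraries. The 4 were Krt75, Krt84, Krt87 and Krt42, with log2 differences of 6.40, 2.16, 1.12 and 1.06. Krt75, a keratin of the companion layer, spanned 0 to 0.591 CPM in tumors and 0.317 to 8.79 in organoids 1 to 3. Its difference came from numbers 1 and 2, at 5.79 to 8.79 CPM. Number 3 held 0.317 to 0.862 CPM and overlapped the tumors. Krt28, Krt27 and Krt83 were lower in organoids 1 to 3, with log2 differences of -4.39, -3.15 and -1.75, at levels of at most 4.88 CPM in either. The first 2 leaned on few tumors. Krt28 held 4.28 CPM in tumor scASO replicate 1 and at most 0.656 in the other tumors. Krt27 held 4.88 CPM in that library, 2.86 in ASO2 replicate 2 and at most 0.751 in the remaining tumors. Of the 2 other members, Krt90 was higher (8.21 ± 0.71 without number 4) and Krt222 lower (-1.88 ± 0.46 with number 4).

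**Figure D4:**
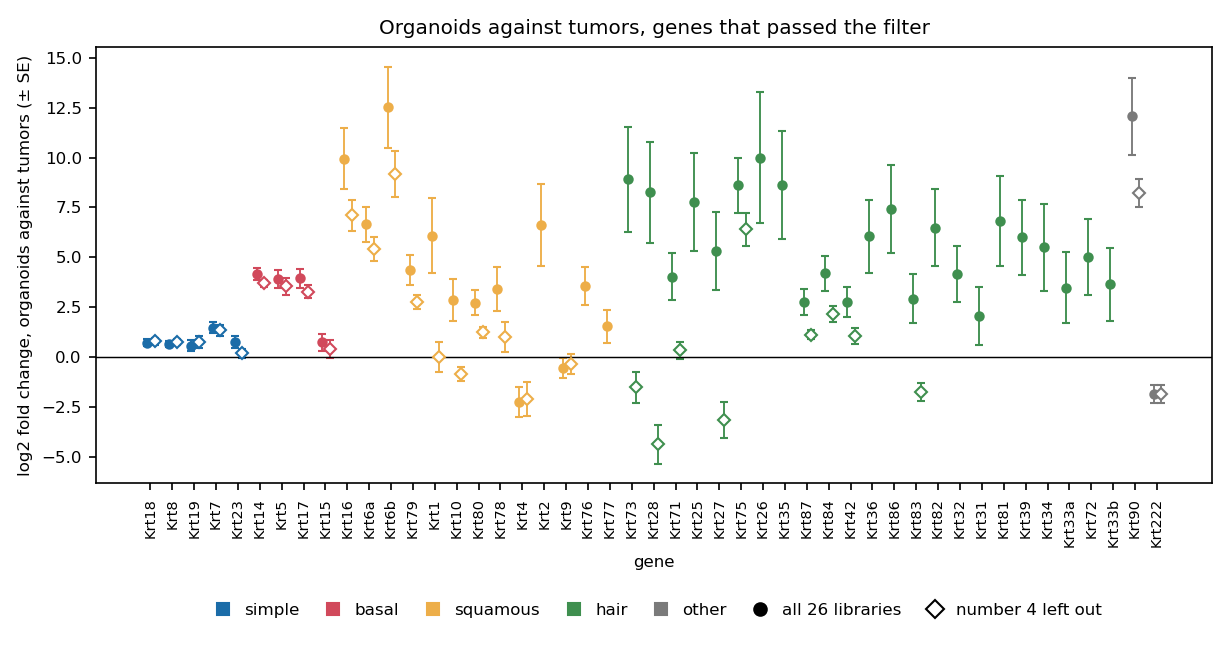
Log2 difference of organoids against tumors for each keratin, with all organoids and without those numbered 4 (2 symbols; bars are SE). Basal keratins and Krt6a, Krt6b and Krt16 lie on the same side under both, while Krt28, Krt27, Krt73, Krt83 and Krt10 change side.

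Linkers of keratin filaments and regulators of keratin genes were called higher more often than all genes, of which 28.9% were called higher and 30.8% lower. Of 12 tested filament linkers, which tie keratins to desmosomes or other structures, edgeR called 11 higher and 0 lower in organoids, among them plakophilin gene Pkp1 by 4.64 ± 0.31, desmoplakin gene Dsp by 3.10 and plectin gene Plec by 1.79. Of 14 tested genes for other intermediate filaments, 4 were higher and 2 lower, neither above the share of all genes. Of 26 regulators of keratin genes, 18 were higher, such as Lef1 by 4.35 and Klf5 by 2.35, and 5 lower, such as Ehf by -1.37. Without number 4, 8 of 12 linkers were called higher and 0 lower, 4 of 14 other filament genes higher and 1 lower, and 16 of 25 regulators higher and 5 lower, beside 28.4% and 31.7% of all genes. Luminal markers summed to 1804 to 3198 CPM in tumors and 2721 to 4625 in organoids, and basal and myoepithelial markers other than keratins to 256 to 4050 and 302 to 878. The sums do not show single genes. Without number 4, 2 of 8 luminal markers were called higher and 2 lower (median log2 difference -0.168). Of 7 basal and myoepithelial markers, 1 was called higher and 4 lower (median -1.54), beside the same shares of all genes. Fibroblast markers summed to 242 to 2335 CPM in tumors and 49.1 to 295 in organoids, and leukocyte markers to 88.1 to 308 and 11.9 to 67.5. The part of these shifts in the keratin differences was not tested.

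The 4 organoid libraries numbered 4, 1 from each treatment, carried keratins of the hair follicle's inner root sheath and of cornifying epithelium. In 38 of 49 members every library numbered 4 lay above every organoid library numbered 1 to 3, where 11.9% of 18699 expressed genes did so and 11.6% lay below. These were 22 of 24 hair, 11 of 13 squamous, 3 of 4 basal, 1 of 6 simple and 1 of 2 other members. As these libraries were set apart after their values were seen, this is a description with no test. The rule asked for counts in only 1 library, so members could enter through number 4. Krt35, Krt34, Krt33a, Krt33b and Krt72 held 0 CPM in all of numbers 1 to 3, so any counts in number 4 placed them above. The hair count was thus partly set by the rule. Summed hair keratins were 2231 ± 1052 CPM (SD, n = 4) in number 4 and 12.8 ± 3.04 (n = 12) in numbers 1 to 3. Of that, the inner root sheath keratins Krt25, Krt26, Krt27, Krt28, Krt71, Krt72 and Krt73 gave 1954 ± 885 CPM, against 3.17 ± 1.06. Summed simple keratins were 3297 ± 219 CPM in number 4 and 4153 ± 1086 in numbers 1 to 3, with overlap.

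The promoters of 5 abundant inner root sheath keratins, which were high together, are shown with those of Krt5, Krt8 and Krt18. Sequences come from RefSeq on GRCm38.p6, 5′ to 3′ on the gene's strand. Each shows the 100 bases before the RefSeq start, or before the GENCODE gene start where that lay further upstream (by 12 bases in Krt71, 36 in Krt18 and 140 in Krt8). A window was matched by symbol for 32 of the 49 members. Those of Krt14 and Krt7 were left out, since their RefSeq start lay 1518 and 1360 bases inside the GENCODE gene, over the limit of 200, which left 30. Capitals mark TATAAA, or GCCNNNGGC in Krt18.
Krt25, chr11:99322952-99323051, minus strand: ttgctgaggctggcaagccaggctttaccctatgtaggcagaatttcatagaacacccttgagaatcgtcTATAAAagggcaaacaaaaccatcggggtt
Krt27, chr11:99351119-99351218, minus strand: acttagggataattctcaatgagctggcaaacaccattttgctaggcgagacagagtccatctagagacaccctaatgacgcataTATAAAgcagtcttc
Krt28, chr11:99374904-99375003, minus strand: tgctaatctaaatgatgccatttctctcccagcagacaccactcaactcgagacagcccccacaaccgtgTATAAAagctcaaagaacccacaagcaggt
Krt71, chr15:101743110-101743209, minus strand: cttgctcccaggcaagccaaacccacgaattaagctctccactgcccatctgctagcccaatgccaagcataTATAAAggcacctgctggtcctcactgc
Krt73, chr15:101802361-101802460, minus strand: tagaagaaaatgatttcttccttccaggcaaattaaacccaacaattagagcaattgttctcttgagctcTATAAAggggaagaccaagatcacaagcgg
Krt5, chr15:101712906-101713005, minus strand: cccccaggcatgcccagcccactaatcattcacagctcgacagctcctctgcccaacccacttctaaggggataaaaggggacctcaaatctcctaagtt
Krt8, chr15:102004483-102004582, minus strand: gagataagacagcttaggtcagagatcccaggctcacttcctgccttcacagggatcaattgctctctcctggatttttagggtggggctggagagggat
Krt18, chr15:102028080-102028179, plus strand: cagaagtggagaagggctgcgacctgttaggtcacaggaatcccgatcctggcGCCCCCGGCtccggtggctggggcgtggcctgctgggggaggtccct
Motifs were searched on both strands of the 250 bases before the RefSeq start: TATAAA (the TATA box core), TGANTCA (the AP-1 core), CTTTGAT (the TCF/LEF core) and GCCNNNGGC (the AP-2 core). TATAAA was found in 12 of 17 hair promoters (70.6%), 2 of 7 squamous, 1 of 4 simple and 0 of 1 basal, and in 11.1% of 15555 promoters of all genes chosen by the same limit. In the printed stretches it began 30 bases before the RefSeq start in Krt25, Krt28 and Krt73, 40 in Krt71 and 15 in Krt27. TGANTCA was found in 0 of 30 keratin promoters and 6.33% of all, CTTTGAT in 2 of 30 and 2.91%, and GCCNNNGGC in 4 of 30 and 15.9%. Neighbouring keratins arose by duplication and share sequence, so their matches are not independent. A match is a description of letters and not of a bound site.

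Among the members of the inner root sheath, Krt73 held 1467 CPM with ASO1, 1085 with ASO2, 959 with scASO and 424 with Mock in number 4, and at most 0.531 in the other 12 organoids. Krt28 held 655, 454, 436 and 158 CPM in the same order, Krt25 252, 155, 241 and 28.6, and Krt71 214, 96.3, 277 and 62.5. In all 4 genes Mock was the lowest of the libraries numbered 4. Keratins of the hair shaft were far lower: Krt35 held 100, 46.1, 53.3 and 10.8 CPM in number 4. Krt33b, Krt72 and Krt88 stayed at 3.01 CPM or less in all libraries.

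Among squamous members, Krt16 held 3188, 2805, 1920 and 2457 CPM in number 4 (ASO1, ASO2, scASO and Mock) and 19.1 to 189 in numbers 1 to 3. Krt6b held 2084, 1825, 1073 and 1230 CPM, against 5.40 to 107. Krt1, which marks cells that have left the basal layer, held 517, 488, 325 and 327 CPM, against 0.166 to 6.09. Organoids numbered 3 held 99.3 to 107 CPM of Krt6b, while numbers 1 and 2 held 5.40 to 13.1. Krt90 held 2182, 1455, 1346 and 431 CPM in number 4, against 7.42 to 55.1 in numbers 1 to 3.

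Genes of the hair follicle other than keratins were high in the same libraries. Tchh, which encodes trichohyalin of the inner root sheath, held 7436, 7097, 6205 and 2664 CPM in number 4 and 4.28 to 7.88 in numbers 1 to 3. Hoxc13, a regulator of hair keratin genes, held 35.4, 20.4, 23.2 and 6.49 CPM, against at most 0.110. The follicle list of 9 genes summed to 2714 to 7712 CPM against 12.8 to 26.8, while Krtap6-1, a shaft gene, was at 0 counts in all libraries and Krtap3-1 and Krtap8-1 reached at most 1.79 CPM. Epidermal markers (10 of 11 matched) summed to 2217 to 3501 CPM in number 4 and 256 to 540 in numbers 1 to 3, with Krtdap at 289, 214, 163 and 229. Luminal markers summed to 2721 to 3136 CPM in number 4 and 2766 to 4625 in numbers 1 to 3.

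Treatment effects in organoids addressed whether lowering Malat1 changed keratins in the tumor cells themselves. Without a block, edgeR called 0 of the 43 members that passed the filter in any of the 6 comparisons (0% of 17126 genes in each). At an unadjusted p under 0.05, the counts were 1 for ASO1 against Mock, 0 for ASO2 against Mock, 0 for scASO against Mock, 0 for ASO1 against scASO, 2 for ASO2 against scASO and 1 for both ASOs against scASO. In the same order, 1.93%, 1.82%, 1.59%, 0.257%, 1.68% and 1.06% of all genes had such a p. DESeq2 gave an adjusted p to 14 of the 43 and called 0 of them in each comparison, with at most 2 at an unadjusted p under 0.05. Over all genes DESeq2 called 0.042% for ASO1 against Mock, 0.006% for scASO against Mock and 0% in the other comparisons.

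Against scASO, no keratin was called with the replicate block either. For ASO1, ASO2 and both ASOs, edgeR called 0 of 43 (0% of all genes in each). An unadjusted p under 0.05 was reached by 12, 12 and 15 of 43, beside 7.16%, 20.7% and 18.4% of all genes. These counts include members that passed the filter only through number 4. The p-values of such members rest mainly on those libraries, so the counts cannot show a shift of the family. Without number 4, edgeR called 0 of 25, and 5, 11 and 11 of 25 had such a p. Of all genes, 5.61%, 24.2% and 20.1% then had such a p. Over both ASOs the median log2 fold change of the 43 was 0.33, against 0.005 over all genes, and 0.29 over the 25 that passed the filter without number 4. Values for both ASOs were 0.40 ± 0.13 (SE) for Krt8, 0.48 ± 0.17 for Krt18 and 0.62 ± 0.22 for Krt7, with edgeR adjusted p of 0.203, 0.214 and 0.213. Krt14 and Krt5 had 0.33 ± 0.11 and 0.32 ± 0.11, Krt17 0.50 ± 0.14, Krt6a 0.52 ± 0.16 and Krt16 0.88 ± 0.28, with edgeR adjusted p of 0.191 to 0.214. Leaving out the 2 libraries whose Malat1 went against the label also left 0 of 46 called (0.00577%, 0.0173% and 0.0231% of all genes for ASO1, ASO2 and both).

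Against Mock, with the replicate block, Krt14, Krt5, Krt17 and Krt6a rose with each of the Malat1 oligonucleotides. The fourth basal member, Krt15, had 0.41 ± 0.20 with ASO1 and 0.42 ± 0.20 with ASO2 (edgeR adjusted p = 0.358 and 0.305). The comparisons of ASO1, ASO2 and scASO share the Mock libraries, so they do not count as independent of each other. For ASO1 edgeR called 17 of 43 higher and 0 lower (1.87% of all genes were called higher), for ASO2 9 higher and 0 lower (1.45%), and for scASO 3 higher and 0 lower (0.549%). The 17 were 3 basal, 1 squamous, 12 hair and 1 other member, and the 9 were 3 basal, 1 squamous and 5 hair. For scASO all 3 were hair keratins. The hair keratins called passed the filter only through number 4, apart from Krt73 in 1 further fit given below. Without number 4, where 25 members passed the filter, median log2 fold changes were 0.40 for ASO1, 0.51 for ASO2 and 0.15 for scASO.

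Krt14 held 1235, 1507, 1547 and 4322 CPM with ASO1 in numbers 1 to 4, 1289, 1880, 1430 and 3672 with ASO2, 1167, 1402, 1146 and 2697 with scASO, and 901, 766, 938 and 2021 with Mock. Within every number Mock was the lowest of the 4 libraries. The log2 fold change against Mock was 0.80 ± 0.13 for ASO1 (edgeR adjusted p = 0.00793), 0.80 ± 0.13 for ASO2 (edgeR adjusted p = 0.0132) and 0.47 ± 0.13 for scASO (edgeR adjusted p = 0.12).

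Krt5 held 1279, 1983, 764 and 3062 CPM with ASO1, 1767, 2122, 696 and 3016 with ASO2, 1361, 1585, 513 and 2482 with scASO, and 856, 1401, 327 and 2039 with Mock. Mock was again the lowest within each number. Krt5 rose by 0.71 ± 0.13 with ASO1 (edgeR adjusted p = 0.0135) and 0.80 ± 0.13 with ASO2 (edgeR adjusted p = 0.0132), and stood at 0.43 with scASO (edgeR adjusted p = 0.149).

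Krt17 held 349, 643, 252 and 1388 CPM with ASO1, 489, 771, 232 and 1218 with ASO2, 344, 372, 173 and 1037 with scASO, and 206, 259, 142 and 917 with Mock, the lowest within each number. It rose by 0.85 ± 0.16 with ASO1 (edgeR adjusted p = 0.0154) and 0.98 ± 0.16 with ASO2 (edgeR adjusted p = 0.0144), and stood at 0.42 with scASO (edgeR adjusted p = 0.238). Krt6a held 169, 239, 348 and 1615 CPM with ASO1 and 70.3, 70.8, 226 and 876 with Mock. It rose by 1.07 ± 0.18 with ASO1 (edgeR adjusted p = 0.01) and 1.05 ± 0.18 with ASO2 (edgeR adjusted p = 0.0172), and stood at 0.54 with scASO (edgeR adjusted p = 0.187). Each of Krt14, Krt5, Krt17 and Krt6a was above Mock in 4 of 4 numbers for ASO1, ASO2 and scASO alike.

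**Figure D5:**
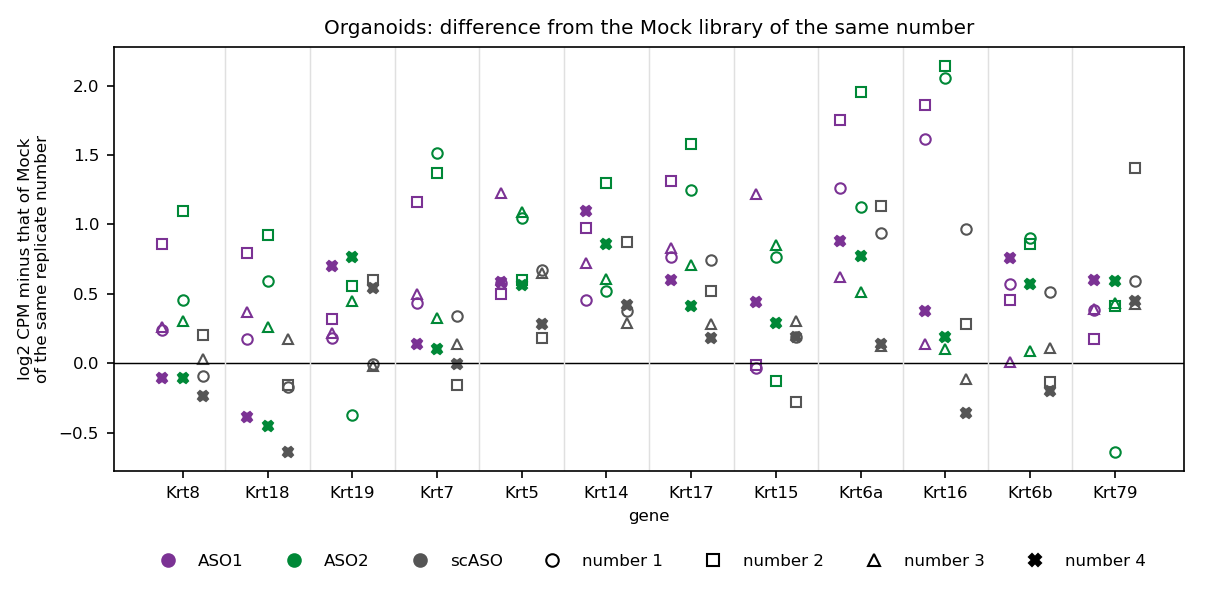
Log2 ratio to the Mock library of the same number for selected keratins (along a shared axis), with 1 point per organoid number and treatment (ASO1, ASO2, scASO). All points of Krt14, Krt5, Krt17 and Krt6a lie above 0, from 0.13 to 1.96.

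The calls on basal keratins depended on the libraries used. Without number 4, edgeR with the block called 0 of 25 for ASO1 (0.308% of all genes higher), 1 for ASO2 (Krt17, 1.18 ± 0.17, edgeR adjusted p = 0.0369; 0.213%) and 0 for scASO (0.0237%). Krt14 then stood at 0.70 with ASO1 (edgeR adjusted p = 0.0817) and Krt6a at 1.15 (edgeR adjusted p = 0.0662). Without number 4 and without the 2 libraries whose Malat1 went against the label, Krt17, Krt5, Krt14 and Krt6a were called for ASO1, 4 of 27 (2.63%), at 0.95, 0.76, 0.70 and 1.15. For ASO2, Krt17, Krt14 and Krt19 were called at 1.11, 0.89 and 0.48 (0.472%), and for scASO 0 of 27 (0.0641%).

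Luminal keratins were not called against Mock in the fit with all organoids. Krt18 stood at 0.20 ± 0.19 with ASO1 and 0.31 ± 0.20 with ASO2, with edgeR adjusted p of 0.706 and 0.465. Krt8 stood at 0.29 ± 0.15 and 0.42 ± 0.15, with edgeR adjusted p of 0.411 and 0.183. Krt8 held 1199, 1859, 1500 and 980 CPM with ASO1 in numbers 1 to 4 and 1017, 1023, 1249 and 1055 with Mock, so that ASO1 was higher in numbers 1 to 3 and lower in number 4.

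The hair keratins called against Mock rested on number 4. Krt73 was among those called for ASO1 and ASO2. Its level within number 4 was 3.46 times that of Mock with ASO1, 2.56 times with ASO2 and 2.26 times with scASO, while the other numbers stayed at or under 0.531 CPM. Each such call thus rests mainly on 1 library against 1 library, and its SE and p are not given. Krt73 also passed the filter without number 4 and the 2 libraries whose Malat1 went against the label. It stood there at 1.55 with ASO1 and 2.35 with ASO2, at those low levels, and was not called (edgeR adjusted p = 0.197 and 0.12). Krt25, Krt82 and Krt31 were called for scASO as well. Tchh was lowest in Mock of number 4 too, and the part of follicle content in these calls was not tested. Leaving out ASO1 replicate 4 reduced the ASO1 calls from 17 to 2 and leaving out Mock replicate 4 to 4, and without either library the sign of Krt28 turned.

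Without the 2 libraries whose Malat1 went against the label, and with the block, 25 of 46 were called for ASO1 (4.39% of all genes higher), 19 for ASO2 (2.27%) and 14 for scASO (1.4%). Hair keratins made 18, 13 and 13 of these, and basal keratins 3, 3 and 0.

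Genes around keratins changed in small numbers. With the block, edgeR called 2 of 12 linkers higher for ASO1 against Mock, beside 1.87% of all genes. They were Dsp by 0.47 ± 0.10 (edgeR adjusted p = 0.0197) and Plec by 0.51 ± 0.12 (edgeR adjusted p = 0.0474). For ASO2, 3 of 12 were higher, beside 1.45% of all genes: Dsp by 0.42, Ppl (periplakin) by 0.43 and Pkp1 by 0.52. Vim, the intermediate filament gene of mesenchymal cells, rose with ASO1, ASO2 and scASO alike, by 0.95 ± 0.14, 0.76 ± 0.14 and 0.92 ± 0.14. Of 26 regulators, Hoxc13 and Foxn1 were called for ASO1, where the Hoxc13 call sets 1 library against 1 as for the hair keratins. Fosl1, a subunit of the AP-1 factor, was called for ASO2 (1.60 ± 0.37, edgeR adjusted p = 0.0472), and no regulator for scASO. Without number 4, edgeR called 0 of 12 linkers and 0 of 25 regulators in all 3 comparisons with Mock. It called 1, 1 and 0 of 14 other filament genes for ASO1, ASO2 and scASO. Of all genes, 0.331%, 0.225% and 0.0237% were called, in the same order. At an unadjusted p under 0.05 there were then 4, 5 and 2 of 12 linkers and 5, 8 and 2 of 25 regulators, in the same order. Over all genes, 11.4%, 15.8% and 10.5% had such a p. In tumors 0 members of these 3 lists were called in any comparison (at most 0.00576% of all genes). Over both ASOs, 2 linkers, 1 other filament gene and 1 regulator had an unadjusted edgeR p under 0.05 there, beside 5.86% of all genes.

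The response to both ASOs against scASO was compared between organoids and tumors. Without a block, edgeR called 0 of 47 keratins different (0% of 18695 genes), and 0 had an unadjusted p under 0.05, beside 4.45% of all genes. With the number within each system as a block, 2 of 47 were called higher in organoids (0.257% of all genes): Krt73 by 6.35 ± 0.97 (edgeR adjusted p = 0.0114) and Krt6b by 4.23 ± 0.78 (edgeR adjusted p = 0.0312). In tumors, Krt6b held 1.33 CPM in scASO replicate 1 and at most 0.116 in the other 9, and Krt73 29.6 and at most 0.657, so that both differences involve that library. In organoids, Krt73 was above 0.531 CPM only in the libraries numbered 4. Its estimate did not need them: without number 4 and without a block it was 7.37 ± 1.71 (edgeR adjusted p = 0.834). In that fit edgeR called 0 of 30 keratins different (0% of 18389 genes). An unadjusted p under 0.05 was reached by 4 of the 30, beside 5.57% of all genes. The numbers of tumors do not pair their libraries. DESeq2 called 0 of the 19 keratins to which it gave an adjusted p (0.0109% of all genes), with 1 at an unadjusted p under 0.05.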

How the data were processed

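RNA was sequenced from 26 libraries of 7 groups, taken from the sample titles. The authors deposited 1 file per library with unnormalized counts per gene. The tools named per the submitters' processing notes are STAR, HTSeq, CASAVA, FastQC and DESeq2, and the build named is mm9. Their versions, settings and gene annotation were not given in the sources used here. The lines for reads outside genes were left out. Relative to reads in genes, these were 21.2 to 44.0% (several alignments), 8.34 to 24.5% (outside features) and 3.9 to 8.7% (ambiguous).

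Gene IDs were matched to symbols, positions and exon lengths of GENCODE M21 on GRCm38 (32620 matched, 4690 did not), so positions are those of GRCm38, not of the authors' build. Promoter windows came from RefSeq on GRCm38.p6, 1 per symbol, with the start within 200 bases of the GENCODE gene start. The members and gene lists were chosen with earlier results of these data known.

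Tests used edgeR 4.0.16 in R 4.3.3 (quasi-likelihood F-test, TMM scaling, filterByExpr with a minimum count of 10 and total of 15). Tumors and organoids were fitted separately, and both together for the contrasts between them, on all genes. P-values were adjusted by Benjamini-Hochberg per comparison, with a threshold of 0.05. Standard errors were taken as |log2 fold change| over the root of F. CPM values used TMM over all 26 libraries, and log2 CPM a prior count of 2. The scripts were tested on simulated data. Chi-square tests of counts found no pair of libraries that agreed within sampling noise, with 14.0 as the smallest statistic per degree of freedom over 36 pairs.

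Replicate numbers were checked for pairing. In organoids, deviations from group means correlated between same-numbered libraries at 0.469 to 0.933 (median 0.817, 24 of 24 pairs over 0.1), against a median of -0.323 between other pairs, so results with the number as a block are given. In tumors, 2 of 9 pairs passed 0.1. Named were the up to 4 most abundant members of each class, up to 5 keratins with the smallest p in each comparison at a mean log2 CPM of 0 or more, and Malat1. Alternatives were DESeq2 1.42.0, plain library totals, no filter, the replicate block, and left-out libraries. Leaving out organoid number 4 was added after seeing the data.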

Additional observations from a re-analysis of the deposited data

Results flagged for a closer look

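Within each group of 4 libraries, the library farthest from the others was examined for the 29 named keratins in 5 groups. A library is listed where its gap to the nearest one, divided by the group's range, passed Dixon's limit of 0.829. Chance passes that limit in about 1 of 20 groups only where genes vary on their own, while these keratins were high together. Of 76 listed cases, 73 were organoid libraries numbered 4, the highest of their group: 19 with ASO1, 18 with ASO2, 20 with scASO and 16 with Mock. Hair keratins near 0 in the other organoids were largely bound to be listed there. The list is thus a description and no test.

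Among hair keratins all 4 treatments passed, with CPM values in the order ASO1, ASO2, scASO and Mock of 252, 155, 241 and 28.6 for Krt25, 182, 125, 161 and 54.5 for Krt27 and 655, 454, 436 and 158 for Krt28. In the same order stood 19.7, 6.7, 5.59 and 0.628 for Krt32, 39.1, 13.5, 15.6 and 1.8 for Krt36 and 214, 96.3, 277 and 62.5 for Krt71. In the same order stood 1467, 1085, 959 and 424 for Krt73, 19.3, 7.21, 8.99 and 0.753 for Krt82 and 45, 14.7, 16.7 and 4.1 for Krt84. Krt31 passed with ASO1 at 16.3, ASO2 at 7.9 and scASO at 5.39 CPM. Krt42 passed with ASO1 at 29.5, ASO2 at 15.4 and scASO at 13.1 CPM. Krt75 passed with ASO1 at 118, ASO2 at 132 and scASO at 64.6 CPM.

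Among basal, squamous and other keratins all 4 treatments passed, with CPM values in the order ASO1, ASO2, scASO and Mock of 3188, 2805, 1920 and 2457 for Krt16, 2084, 1825, 1073 and 1230 for Krt6b and 835, 828, 749 and 550.0 for Krt79. In the same order stood 131, 141, 116 and 125 for Krt80 and 2182, 1455, 1346 and 431 for Krt90. Krt14 passed with ASO1 at 4322, scASO at 2697 and Mock at 2021 CPM. Krt15 passed with scASO at 32.5 CPM. Krt17 passed with Mock at 917 CPM. Krt6a passed with ASO1 at 1615, ASO2 at 1497 and scASO at 966 CPM.

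The remaining 3 cases were single libraries: Krt27 in tumor ASO2 replicate 2 at 2.86 CPM, Krt31 in tumor ASO2 replicate 1 at 1.89 CPM, and Krt8 in organoid Mock replicate 3 at 1249 CPM. Krt6b and Krt73 are listed because their response to both ASOs against scASO differed between organoids and tumors in the fit with the replicate block, by 4.23 and 6.35 on the log2 scale.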

How the results depend on the processing

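Counts of called keratins in tumors were 0 under each alternative run, the replicate block included; there the numbers share only a label. In organoids the counts against Mock went from 0 without a block to 17 (ASO1), 9 (ASO2) and 3 (scASO) with the replicate block, and without the 2 libraries whose Malat1 went against the label to 25, 19 and 14. With the block they were 0, 1 and 0 without number 4, and 4, 3 and 0 without number 4 and those 2 libraries. With the block and 1 library left out at a time they ranged from 2 to 21, 0 to 12 and 0 to 9. The ASO2 count was 0 without ASO2 replicate 2, 5 without ASO2 replicate 4 and 4 without Mock replicate 4. The scASO count was 0 without scASO replicate 1 or 4 or Mock replicate 4, 1 without Mock replicate 2, 5 without Mock replicate 1 and 9 without ASO2 replicate 1. Counts against scASO were 0 throughout.

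For organoids against tumors, 39 calls became 23 without number 4 and 24 to 40 with 1 library left out (25, 24 and 25 without ASO1, scASO and Mock replicate 4). DESeq2 gave 28 of the 47 keratins no p-value, and called 15 of the other 19. The difference of responses went from 0 to 2 calls with the replicate block. Several single genes changed sign with 1 library left out, each time tumor scASO replicate 1: Krt16 ranged from -4.86 to 0.35 (ASO1) and from -4.54 to 0.11 (both ASOs), Krt27 from -4.34 to 0.85 and from -3.89 to 1.56, Krt79 from -1.67 to 0.71 (ASO2) and from -1.31 to 1.06 (both), and Krt80 from -0.89 to 0.21 (both). Krt28 for ASO1 against Mock ranged from -0.49 to 1.97 with the block, turning sign without ASO1 or Mock replicate 4 (-0.49 and -0.23). Krt71 for ASO2 against scASO was 0.22 with the block without number 4 and those 2 libraries. Where no value above shows it, the cause was not tested. Of the 49 keratins, 26 in tumors and 43 in organoids (25 without number 4) passed the filter on low counts, and the others were too shallow to be tested.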
